A study of Mus musculus with 6 samples.

Results

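The heat shock proteins, their DnaJ cochaperones and the chaperonins were followed in the adrenal gland of mice that lack PACAP, the neuropeptide that splanchnic nerve endings release onto the catecholamine-secreting chromaffin cells. The members were all clones whose gene symbol starts with Hspa, Hspb, Hspd, Hspe, Hsph, Hsp90, Dnaja, Dnajb, Dnajc or Pdia, or with Cct and a digit, or equals Calr, Canx or Tcp1. They came to 183 clones of 74 genes, of 35970 clones and 11837 named genes on the array. Adrenal RNA of PACAP +/+ (wild-type) and PACAP -/- (knockout) mice, both 129XC57BL6 F2, was hybridised as pairs to 6 spotted cDNA arrays. On each array the wild-type RNA was labelled with Cy5 (red) and the knockout RNA with Cy3 (green). No array had the dyes exchanged, so a dye effect of a clone cannot be told apart from an effect of genotype. The labels number the arrays as repeats without saying whether each held other animals, and each p-value covers only how far these 6 arrays differed, a spread that may be technical. The RNA came from whole glands, in which fewer cells of a type and less RNA per cell cannot be told apart.

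Chaperones bind proteins that are not yet folded, or no longer folded, and keep them from clumping. Hsp70 proteins hold short exposed stretches and release them in a cycle that DnaJ proteins drive, Hsp90 acts later on clients such as steroid receptors and kinases, and the chaperonins enclose whole proteins in a chamber. In a gland that makes steroids and secretory granules, the endoplasmic reticulum has chaperones of its own, which fold proteins bound for secretion. Cytosolic heat shock genes are classic targets of heat shock factor, and those of the endoplasmic reticulum of the unfolded protein response.

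Values are log2 ratios of knockout over wild type, normalized within each of 48 print blocks, the areas printed by 1 pin (print-tip loess). A clone was tested where at least 4 arrays gave a value, with limma and Benjamini-Hochberg adjustment over all 28666 clones tested, and called at an adjusted p below 0.05. A gene with several clones is represented by its brightest one. Of the members, 167 clones of 67 genes were tested, and 16 clones were not. The 7 genes without a tested clone were Dnaja4, Dnajc6, Dnajc18, Dnajc19, Hspb3, Hspb11 and Hspd1-ps3. The median red signal, with the local background already subtracted, was 1.32 and 1.11 times that background on arrays 2 and 4. It was between 1.59 and 4.57 times on the others, while the green signal was between 5.15 and 6.79 times. Arrays 2 and 4 also had the widest ratios, with an SD over all clones of 0.50 and 0.51 against 0.23 to 0.38 elsewhere. The clone of Adcyap1, the deleted gene, gave values on only 2 arrays (-0.07 and -0.04) and gave no check of the labels. Markers of chromaffin cells (4 of 6) and of the cortex (5 of 8) were tested, with Th and Star brighter than 89.5% and 98.8% of the tested clones. The dimmest tested marker of each, Slc18a1 and Mc2r, was brighter than 23.6% and 39.2%. No clone of the 3 kidney markers was tested.

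Clone names were checked against the titles in the scanner files. The title named the same gene or family for 81 of the 183 clones, gave no gene name for 94 and named another gene for 8. Values of those 8 clones are marked where they are named. The symbols Hspbp1, Hspbap1 and Hspb11 match the rule by their letters only and are no small heat shock proteins, and Hspd1-ps3 is a pseudogene. Hsp90ab1, the constitutive cytosolic Hsp90, was named by no clone through the annotation and was not analysed here as a member. Whether 5 clones titled heat shock protein, 84 kDa 1 measure it was not checked, and their values are given beside those of Hsp90aa1.

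Of the 167 member clones, 10 were higher in the knockout and 6 lower, and 151 did not pass the threshold. That is 9.58% of the members against 11.2% of all clones, with 5.99% against 6.67% higher and 3.59% against 4.56% lower, so the members were not called more often than other clones. Their median log2 ratio was 0.14, and that of all clones was -0.002. By size, 108 of the 167 (64.7%) lay above 0, against 49.7% of all clones. Several genes enter these figures with many clones. By the brightest clone of each of the 67 genes the median was 0.05, and 37 (55.2%) lay above 0. The called changes were small, from 0.30 to 0.69 in size, with adjusted p from 0.025 to 0.050. Without array 1 and without array 5, 12 and 9 of the 16 calls held. Without array 2, 3, 4 or 6 none held, and the calls over all clones fell from 3217 to 1, 1, 19 and 1. The 16 clones kept their sign and an unadjusted p below 0.05 in each of these 6 fits.

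The excess above 0 was uneven over the arrays. The members' median was -0.04, 0.36, 0.15, 0.30, -0.06 and 0.10 on arrays 1 to 6, where that of all clones stayed between -0.006 and 0.007. On arrays 1 and 5, 39.5% and 39.8% of the member clones lay above 0, and on arrays 2 and 4 76.3% and 70.6% did. Without arrays 2 and 4 the median was 0.02. The part of the weak red signal of these arrays in the members' ratios was not tested.

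**Figure D1:**
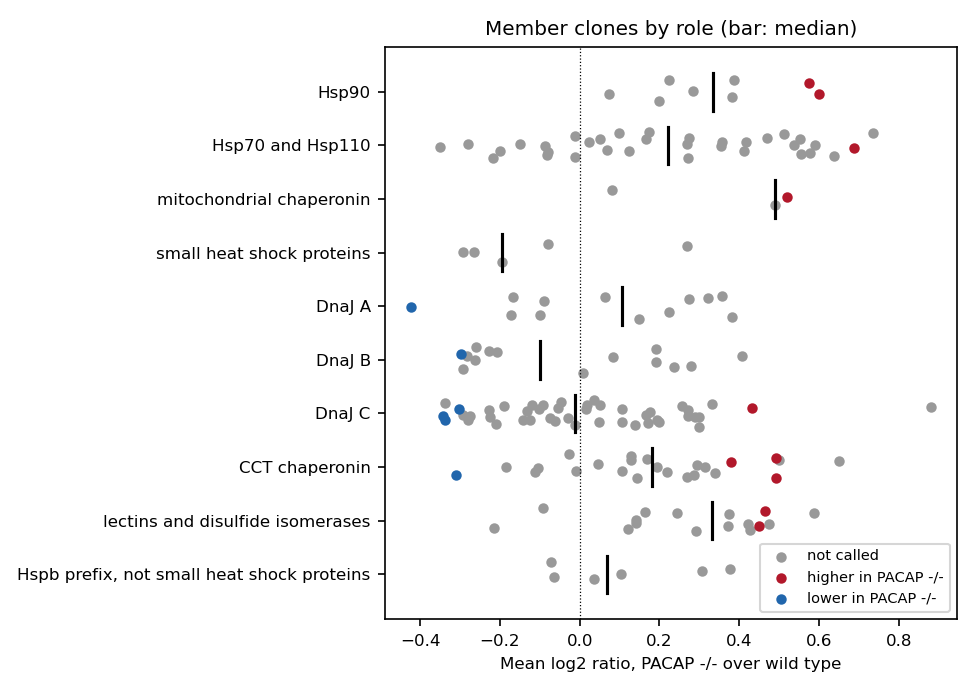
Mean log2 ratio (knockout over wild type) of each of the 167 tested member clones on the horizontal axis, grouped by role, with called clones in red (higher, 10) and blue (lower, 6), other clones in grey and the median of each role as a black bar. The medians run from 0.49 for the mitochondrial chaperonin (3 clones) and 0.33 for Hsp90 to -0.20 for the small heat shock proteins (5 clones).

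Hsp90b1, also called Grp94, is the Hsp90 of the endoplasmic reticulum and the only member gene with more than 1 called clone. Its brighter clone read -0.04, 1.20, 0.81, 1.15, 0.09 and 0.40 on arrays 1 to 6. The other read 0.34, 1.17, 0.55, 0.88, -0.02 and 0.53. Both were thus highest on arrays 2 and 4 and near 0 on array 5, and each lay below 0 on 1 array. The means were 0.60 ± 0.17 and 0.57 ± 0.14 (SE, n = 6 arrays), or 1.52-fold and 1.49-fold, with adjusted p of 0.047 and 0.035. Without arrays 2 and 4 they were 0.32 and 0.35. With global loess, which fits 1 curve to the whole array, the dimmer clone was called at 1.26, while the brighter one was at 0.09 and not called (adjusted p 0.69). With median centring of the arrays the brighter clone turned to -0.16, and in the deposited value table to -1.19. All figures from the value table are given as knockout over wild type, after each array was centred on its median.

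Hsp90aa1, the inducible cytosolic Hsp90, was measured by 6 tested clones, and none was called. All 6 means lay above 0, from 0.07 to 0.39, and the adjusted p ran from 0.16 to 0.59. The 6 clones agreed in their order over the arrays rather than in 1 direction. On array 1 all 6 were below 0, from -0.76 to -0.04, and on array 2 all 6 were above it, from 0.37 to 1.30. They lay between 0.15 and 0.43 on array 3, between 0.20 and 0.92 on array 4, between -0.37 and 0.09 on array 5 and between -0.10 and 0.66 on array 6. The brightest clone, with a mean of 0.07 ± 0.09, varied least, and 1 clone whose title names another gene (Nek6) had the same order. A further set of 5 clones bears the title heat shock protein, 84 kDa 1 in the scanner files without a gene in the annotation. They read -0.34 to -0.05 on array 1, 0.91 to 1.42 on array 2 and 0.61 to 1.22 on array 4. Their means lay between 0.37 and 0.60, and none was called (lowest adjusted p 0.059).

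Among the Hsp70 and Hsp110 proteins, 1 of 34 clones was called (2.94%, against 11.2% of all clones). It belongs to Hspa14, a ribosome-bound Hsp70, and was the largest called change of all members. Its values were 0.19, 0.99, 0.56, 1.17, 0.41 and 0.80 on arrays 1 to 6, all above 0. The mean was 0.69 ± 0.13 (SE, n = 6), a 1.61-fold difference with an adjusted p of 0.026, and 0.49 without arrays 2 and 4. In the value table the clone was at -0.54 (adjusted p 0.33). The scanner title of this clone reads heat shock protein, 70 kDa 4 and does not give the symbol Hspa14.

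Hspa8, the constitutive Hsp70 known as Hsc70, had 7 clones with means between 0.36 and 0.74, and none was called (adjusted p 0.059 to 0.30). Its brightest clone read -0.35, 1.39, 0.40, 1.16, -0.17 and -0.29 on arrays 1 to 6, with a mean of 0.36 ± 0.23. On array 1 all 7 clones lay below 0, from -0.61 to -0.08. On array 2 all 7 lay between 1.10 and 1.71, and on array 4 between 1.11 and 1.54, at or above the 95.7th and 96.0th percentile of all clones there. On array 3 all 7 were above 0, from 0.35 to 1.01. The 6 clones with a value on array 5 spread around 0, from -0.26 to 0.25. On array 6 the clones ran from -0.29 to 0.66, with 6 above 0 and the brightest below. The clone whose title names another gene (an Ena/VASP relative) behaved like the others, with -0.46 on array 1 and 1.63 on array 2. Without arrays 2 and 4 the median over the 6 clones that could be fitted was 0.12, against 0.55 over 7 with all arrays.

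Hsph1, the Hsp110 that helps Hsp70 to exchange its nucleotide, stood lowest on array 1. Of its 4 clones 3 read between -0.81 and -0.79 there, within the lowest 0.2% of all clones, and the dimmest read -0.003. On array 2 the same 4 clones lay between 0.44 and 0.73. Their means were -0.01, 0.02, -0.01 and 0.35, and none was called. Hspa1b, the stress-induced Hsp70, was measured by 1 bright clone that read -0.54, 1.48, 0.58, 1.26, 0.34 and 0.34, with a mean of 0.58 ± 0.22 and an adjusted p of 0.10. With global loess its mean was -0.05. Over Hspa8, Hsp90aa1 and Hsph1 together, which were grouped after their values were seen, 17 of 17 clones were below 0 on array 1 and 17 of 17 above it on arrays 2, 3 and 4. None of the 17 was called, and 5 had an unadjusted p below 0.05. Global loess called 7 of the 17 higher (41.2%, against 16.2% of all clones), 4 of Hspa8 and 3 of Hsp90aa1.

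**Figure D2:**
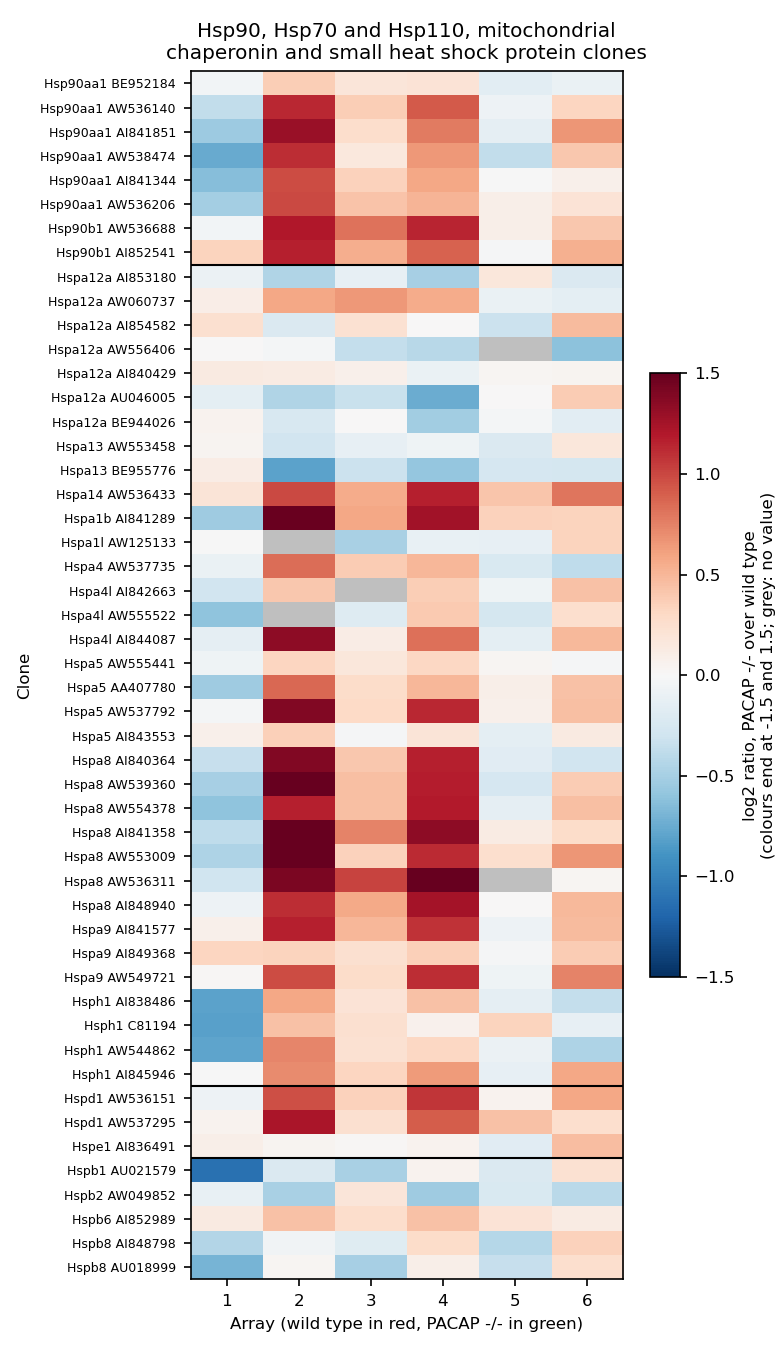
Log2 ratio (knockout over wild type) of each tested clone of the Hsp90, Hsp70 and Hsp110, mitochondrial chaperonin and small heat shock protein genes (rows, brightest clone of a gene first) on arrays 1 to 6 (columns), red above 0, blue below, grey without a value. Rows of Hspa8, Hsp90aa1 and Hsph1 are blue on array 1 and red on arrays 2 to 4, while Hspa12a rows share no pattern.

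Markers of the adrenal cortex had a like order over the arrays. The median of the 5 tested markers was -0.08, 1.56, 0.21, 1.37, 0.27 and 0.37 on arrays 1 to 6, with 2 of 5 higher and means from 0.38 (Mc2r) to 1.40 (Hsd3b1). That of the 4 chromaffin markers was 0.08, 0.78, 0.37, 0.89, -0.03 and 0.76, with Chgb higher and Slc18a1 lower. Dimmer clones were also called higher, 2 of Chga, 1 of Chgb and 1 of Hsd3b1. Of 2 erythroid, 2 macrophage, 1 adipocyte and 1 muscle marker tested none was called, with medians between -0.06 and 0.21. Global loess called 4 of 5 cortex, 3 of 4 chromaffin and 1 of 2 macrophage markers higher, and 1 chromaffin marker lower. The part of cell type content in the chaperone ratios was not tested.

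Hspa5, or BiP, the Hsp70 of the endoplasmic reticulum, had 4 clones above 0 and none called. The brightest read -0.07, 0.32, 0.17, 0.31, 0.03 and -0.02, with a mean of 0.12 ± 0.08 (adjusted p 0.32), and the largest of the 4 means was 0.55 (adjusted p 0.069). The brightest clone was at -0.08 with global loess and at -0.50 with median centring of the arrays. Global loess called 2 of the 4 clones higher, and the values of the 4 ran from -0.08 to 0.63 with it. Hspa9, the mitochondrial Hsp70 or mortalin, had 3 clones with means of 0.54, 0.51 and 0.27 and adjusted p of 0.055, 0.062 and 0.053. All 3 were above 0 on arrays 1 to 4 and 6, and between -0.07 and -0.01 on array 5. Hspa12a, a distant relative, had 7 clones with means from -0.28 to 0.27, of which 3 lay above 0 and 4 below. Hspa4, Hspa4l, Hspa13 and Hspa1l gave 7 clones between -0.35 and 0.41, none of them called.

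Hspd1, or Hsp60, forms the chamber of the mitochondrial chaperonin, and Hspe1 (Hsp10) its lid. Of the 2 Hspd1 clones the dimmer was called, with 0.06, 1.23, 0.24, 0.90, 0.44 and 0.26 on arrays 1 to 6. Its mean was 0.52 ± 0.15 (1.43-fold, adjusted p 0.048), 0.25 without arrays 2 and 4, and -0.47 in the value table. The brighter one read -0.07, 0.96, 0.34, 1.08, 0.05 and 0.58, with a mean of 0.49 ± 0.15 and an adjusted p of 0.060, so the clones differed by less than their error. The Hspe1 clone stayed within 0.17 of 0 on 5 arrays and read 0.46 on array 6, for a mean of 0.08 ± 0.09. The genes lie head to head, and 30 bases between their starts are shown because both windows hold the same heat shock element there. The letters come from the promoter table of RefSeq on GRCm38.p6, which held windows of 250 bases before to 50 after a start for 61 of the 74 genes. The motif searched was GAANNTTCNNGAA on both strands, which 0.603% of all 32851 windows held, and those of Dnajb6, Hspd1, Hspe1 and Hsph1 among the members. Capitals mark the 2 overlapping matches, 89 to 72 bases before the Hspe1 start at chr1:55088053-55088082, plus strand. The shorter GAANNTTC, in 7.86% of all windows, matched in 13 member genes. Hspa1b, with 1 match, is shown because it is the stress-induced Hsp70, and was picked with its value in view. The stretch is at chr17:34959315-34959362 on the minus strand.
Hspe1: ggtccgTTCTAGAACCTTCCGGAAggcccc
Hspa1b: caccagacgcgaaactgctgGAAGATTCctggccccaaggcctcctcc
By their brightest clones Hspe1 was at 0.08, Hspd1 at 0.49 and Hspa1b at 0.58. Dnajb6 was at 0.19 and Hsph1 at -0.01. Of the other genes with the shorter motif, Cct2 was at 0.65, Hspb6 at 0.27, Hspb8 at -0.08, Dnaja1 at -0.17, and Hspb1 and Dnajc27 at -0.29 each, and Dnaja4 and Hspb3 had no tested clone. The carriers thus lay on both sides of 0, and none of these brightest clones was called. Hspa8 and Hsp90aa1 had no entry in the table.

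The small heat shock proteins were the only role besides DnaJ B and DnaJ C with a median below 0, at -0.20, and none of their 5 tested clones was called. Hspb1 (Hsp25), which guards actin filaments, read -1.12, -0.22, -0.48, 0.05, -0.21 and 0.23, with a mean of -0.29 ± 0.15 (adjusted p 0.21). Its value on array 1 was within the lowest 0.1% of all clones. Both Hspb8 clones were low on array 1 as well, at -0.70 and -0.44, and above 0 on arrays 4 and 6. Hspb6 alone of this role was above 0 on all 6 arrays, from 0.13 to 0.44, with a mean of 0.27 ± 0.08 and an adjusted p of 0.053.

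DnaJ proteins, which set off the Hsp70 cycle through a shared J domain, made up 82 of the 183 clones, and 71 were tested. Of these 1 was higher and 5 were lower, 8.45% in all against 11.2% of all clones, and their median was 0.009. Dnaja2, a cytosolic partner of Hspa8, had the smallest adjusted p of all members. Its brightest clone read -0.44, -0.32, -0.52, -0.57, -0.28 and -0.40, below 0 on all 6 arrays, with a mean of -0.42 ± 0.08 (1.34-fold lower, adjusted p 0.025). It kept -0.41 without arrays 2 and 4. The other clones of Dnaja2 had means of 0.36 and 0.06 and adjusted p of 0.22 and 0.67, so 3 clones annotated to 1 gene did not share a direction.

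Dnajb1, the main stress-induced Hsp40, was lower by its bright clone, which read -0.42, -0.43, -0.35, -0.39, -0.17 and -0.04. The mean was -0.30 ± 0.08 (1.23-fold lower, adjusted p 0.045). With global loess the same clone was called higher, at 0.52 with an adjusted p of 0.016. It lies in print block 40, whose clones had a mean of 0.54 after global loess. Its second clone read above 0 on arrays 1 to 5, from 0.39 to 0.83, and -0.83 on array 6, with a mean of 0.41 ± 0.19 (adjusted p 0.17). With global loess the second clone was called higher too, at 0.65 (adjusted p 0.0043), so both clones were higher there. By print-tip loess they lay on opposite sides of 0. No direction of Dnajb1 thus held over its clones and both normalizations.

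Dnajc5, the cysteine string protein of secretory vesicles, showed the same disagreement within 1 normalization. Its called clone read -0.15, -0.29, -0.48, -0.45, -0.57 and -0.10 (mean -0.34 ± 0.09, adjusted p 0.039), while its brightest clone read 0.44, 0.59, 0.09, 0.23, 0.27 and -0.09 (mean 0.26 ± 0.10, adjusted p 0.10). With global loess both were called, at -0.67 and 0.88. The scanner files give neither clone a gene name. The clone that they title as this gene had a mean of 0.14 (adjusted p 0.23), with 5 of 6 arrays above 0, and the fourth clone was at -0.28 (adjusted p 0.20). Dnajc7, a cochaperone with tetratricopeptide repeats, was higher by 1 of 4 clones, at 0.43 ± 0.11 (adjusted p 0.041), with values from 0.11 to 0.90. The brightest clone of the gene, at -0.27 ± 0.09, did not pass, nor did the others at 0.17 and 0.30. With global loess the called clone was at -0.02 and not called, while the brightest was called lower at -0.79 (adjusted p 0.0036) and the clone at 0.30 was called higher at 0.62. Dnajc2, a J protein of the ribosome, was lower by the dimmer of 2 clones, at -0.34 ± 0.10 (adjusted p 0.048), with the other at -0.21. The value table had the called clone at 2.12. The clone of Dnajc25 was lower at -0.30 ± 0.09 (adjusted p 0.050), with 0.02 on array 1 and -0.53 to -0.26 on the others. The clones of Dnajc2 and Dnajc25 were at -0.31 and -0.33 with global loess and not called.

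The other DnaJ clones did not pass. Dnaja1, an abundant cytosolic J protein, had 7 clones with means from -0.17 to 0.38, of which 3 lay above 0 and 4 below. On array 4 they ranged from -0.59 to 1.31. Dnajc3, which sits in the endoplasmic reticulum and is known as an inhibitor of the kinase PERK, had 3 tested clones with means of -0.07, -0.12 and 0.27. The means of the other J proteins with at least 3 clones lay on both sides of 0, except those of Dnajc30, which were all above it. They ran from -0.26 to 0.19 over 3 clones of Dnajb6, from -0.09 to 0.11 over 3 of Dnajc1, from -0.34 to 0.02 over 4 of Dnajc10, from -0.23 to 0.11 over 3 of Dnajc13 and from 0.04 to 0.20 over 3 of Dnajc30. Both clones of Dnajb4 were below 0, at -0.26 and -0.21 (adjusted p 0.088 each), and the clone of Dnajb5 was below 0 on all 6 arrays, at -0.29 (adjusted p 0.052). The largest mean of any member belonged to a very bright Dnajc24 clone whose title gives no gene name, and which read 0.09, 2.01, 0.52, 2.36, 0.44 and -0.14. Its mean was 0.88 ± 0.31, and with an adjusted p of 0.082 it was not called.

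**Figure D3:**
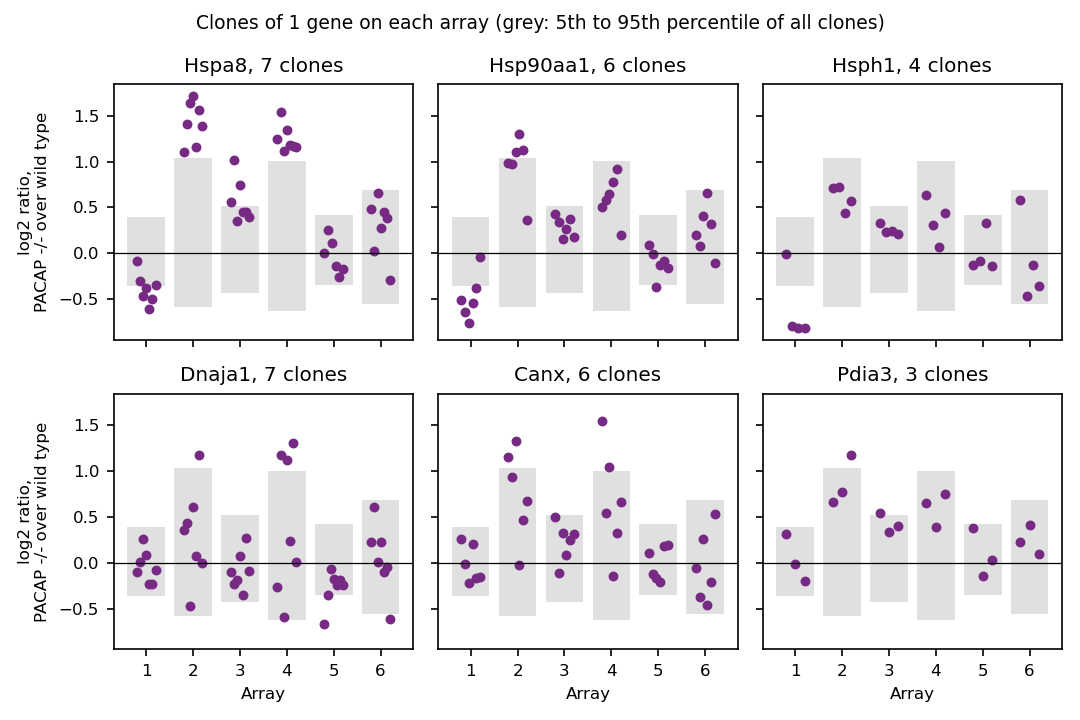
Log2 ratio (knockout over wild type) of each clone (points) of Hspa8, Hsp90aa1, Hsph1, Dnaja1, Canx and Pdia3 on arrays 1 to 6, with the 5th to 95th percentile of all clones as a grey band. The 7 Hspa8 clones lie above the band on arrays 2 and 4 and run from -0.29 to 0.66 on array 6, while the 7 Dnaja1 clones spread from -0.59 to 1.31 on array 4.

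The cytosolic chaperonin CCT folds actin and tubulin in a double ring of 8 related subunits, and 8 genes (Tcp1 and Cct genes) were measured by 24 clones. Of these 3 were higher and 1 lower. That is 16.7%, or 4 clones of 24, against 11.2% of all clones (6.67% higher and 4.56% lower). Cct7 was higher by its brightest clone, which read 0.03, 0.57, 0.33, 0.66, 0.13 and 0.55 (mean 0.38 ± 0.10, adjusted p 0.042). Its other 3 clones also lay above 0, from 0.05 to 0.13. Cct8 was higher by its brighter clone, at -0.15, 0.86, 0.16, 0.89, 0.56 and 0.65 (mean 0.49 ± 0.14, adjusted p 0.046), and its dimmer clone was at 0.19.

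Cct2 and Cct4 were less clear. The called Cct2 clone (0.49 ± 0.13, adjusted p 0.045) has a title that names another gene, and the brighter clone, titled as this subunit, was at 0.65 ± 0.23 and not called (adjusted p 0.090). The called clone was at 0.07 with global loess and lost its call (adjusted p 0.81). Of 5 Cct4 clones a dim one was lower, at -0.31 ± 0.09 (adjusted p 0.046) with all 6 arrays below 0, and the brightest was at -0.11, while the other 3 lay between 0.14 and 0.34. With global loess the called clone turned to 0.11 and was not called, and the brightest was called higher at 0.62 (adjusted p 0.0038). Tcp1, the first subunit, had 3 clones between 0.27 and 0.31 (that at 0.31 titled as another gene) and its brightest at -0.18, none called. Cct3 had 3 clones between -0.11 and 0.10 (that at -0.11 titled as another gene), Cct5 2 clones at -0.03 and 0.29, and Cct6a 2 clones at 0.17 and 0.50, none called. The member clones of the subunits thus shared no direction that passed the test. Global loess called 1 Cct5 clone and both Cct6a clones higher. Clones titled as a subunit but without a gene in the annotation were not members. Among these, 1 titled chaperonin subunit 6a was higher at 0.90 (adjusted p 0.046). Another, titled t-complex protein 1, related sequence 1, was higher at 0.44 (adjusted p 0.037). Global loess called both higher too. A clone titled subunit 3 was at 0.16 and called by neither.

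The lectin chaperones and disulfide isomerases of the endoplasmic reticulum had a median of 0.33, with 14 of 16 clones (87.5%) above 0, against 49.7% of all clones. Of the 16 clones 2 were called, both higher, which is 12.5% against 11.2% of all clones. Calr (calreticulin), which binds calcium and sugar-bearing proteins, was higher by its brighter clone. It read 0.16, 0.72, 0.53, 0.65, 0.23 and 0.41, above 0 on all 6 arrays. The mean was 0.45 ± 0.09 (1.36-fold, adjusted p 0.029), and 0.33 without arrays 2 and 4. The dimmer clone was at 0.24 ± 0.12 (adjusted p 0.18). With global loess the calls changed places: the brighter clone was at 0.20 and not called (adjusted p 0.24), and the dimmer was called higher at 0.54. The brighter clone was at -0.00066 with median centring of the arrays and at -1.04 in the value table. Pdia3, the isomerase that works with calreticulin and calnexin, was higher by the dimmest of 3 clones. It read 0.32, 0.66, 0.55, 0.65, 0.38 and 0.23, with a mean of 0.46 ± 0.09 (1.38-fold, adjusted p 0.026). The other clones were at 0.37 and 0.29, and all 3 lay above 0 on arrays 2, 3, 4 and 6. With global loess all 3 were called higher, from 0.59 to 0.99.

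Canx (calnexin), the membrane-bound partner of calreticulin, had 5 of 6 clones above 0, with means from -0.09 to 0.59 and none called. Its brightest clone read -0.16, 0.68, 0.32, 0.66, 0.20 and 0.53 (mean 0.37 ± 0.11, adjusted p 0.060). The brighter Pdia4 clone was at 0.47 ± 0.15 (adjusted p 0.070), and the other at 0.12. Pdia6 was at 0.42 by a clone whose title names another gene (zinc finger homeobox 1b) and at 0.16 by the other. With global loess 1 of the 2 Pdia4 clones was called lower, at -0.45, and 1 clone each of Canx and Pdia6 higher. By print-tip loess the only clones of this role below 0 were the tested clone of Pdia5, at -0.22, and the 1 of Canx.

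The promoters of 6 member genes held the endoplasmic reticulum stress element, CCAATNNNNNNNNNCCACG on either strand, known as a target of the unfolded protein response. It occurred in 0.119% of all windows. They are printed with 20 flanking bases from the same RefSeq table (GRCm38.p6), read 5′ to 3′ along the gene, because they are the chaperones of the secretory pathway described above that carry it. Capitals mark the element, which in Calr and at the second site of Hsp90b1 lies on the opposite strand. They stand at chr2:34772005-34772063 (Hspa5, plus), chr10:86705513-86705676 (Hsp90b1, minus), chr8:84847055-84847113 (Calr, minus), chr11:50325780-50325838 (Canx, minus), chr14:118937807-118937865 (Dnajc3, plus) and chr12:17266471-17266529 (Pdia6, plus).
Hspa5: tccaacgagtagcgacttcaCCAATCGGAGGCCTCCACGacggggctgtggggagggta
Hsp90b1: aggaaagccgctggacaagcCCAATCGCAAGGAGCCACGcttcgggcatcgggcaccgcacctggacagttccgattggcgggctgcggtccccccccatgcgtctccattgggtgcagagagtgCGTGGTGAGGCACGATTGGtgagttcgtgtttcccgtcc
Calr: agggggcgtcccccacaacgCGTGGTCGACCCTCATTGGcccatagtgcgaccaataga
Canx: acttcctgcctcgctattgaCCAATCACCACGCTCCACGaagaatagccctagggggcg
Dnajc3: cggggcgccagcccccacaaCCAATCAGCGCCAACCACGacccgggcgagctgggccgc
Pdia6: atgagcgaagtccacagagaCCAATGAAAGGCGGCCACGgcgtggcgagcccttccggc
Of their 19 tested clones 3 were higher (both of Hsp90b1 and 1 of Calr) and none lower, where 6.67% and 4.56% of all clones were. Only 1 of the 3, the dimmer Hsp90b1 clone, was also called with global loess. Of the 19 clones 16 lay above 0, and their median was 0.27. On arrays 2 and 4, 18 of 19 lay above 0, with medians of 0.68 and 0.57, and on array 1 7 of 19 did, with a median of -0.04. A match is a description of these letters and says nothing of binding in this gland.

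Over all members with at least 3 tested clones, the clones of 7 of 24 genes shared 1 sign, and in all 7 it was above 0: Cct7, Dnajc30, Hsp90aa1, Hspa5, Hspa8, Hspa9 and Pdia3. In the other 17 genes the clones lay on both sides. No gene had clones called in opposite directions by print-tip loess, and 4 had with global loess: Dnajc5, Dnajc7, Tcp1 and Hspbap1. The 4 Hspbap1 clones ran from -0.69 to 0.41 with it, and from -0.07 to 0.38 by print-tip loess.

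With global loess 52 of the 167 member clones were called, 39 higher and 13 lower, against 30.4% of all clones (16.2% higher and 14.2% lower). This is 31.1% of the members, again close to the background, with 23.4% higher and 7.78% lower. Of the 16 print-tip calls 8 were also called the same way (6 higher and 2 lower), and Dnajb1 was called the opposite way. The calls shared by both were clones of Cct7, Cct8, Hspa14, Hsp90b1 (the dimmer one), Pdia3 and Hspd1 among the higher and of Dnaja2 and Dnajc5 among the lower. The global values of the 6 higher ones ran from 0.56 to 1.26, and those of the lower ones were -0.70 and -0.67. After global loess the print blocks accounted for 46.9% of the variance of the spots' mean ratios, and after print-tip loess for 0.06%. The block mean ran from -0.57 to 0.56 with global loess. Leaving out 1 array in turn left between 28 and 61 member calls with global loess, and leaving out arrays 2 and 4 left 15.

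**Figure D4:**
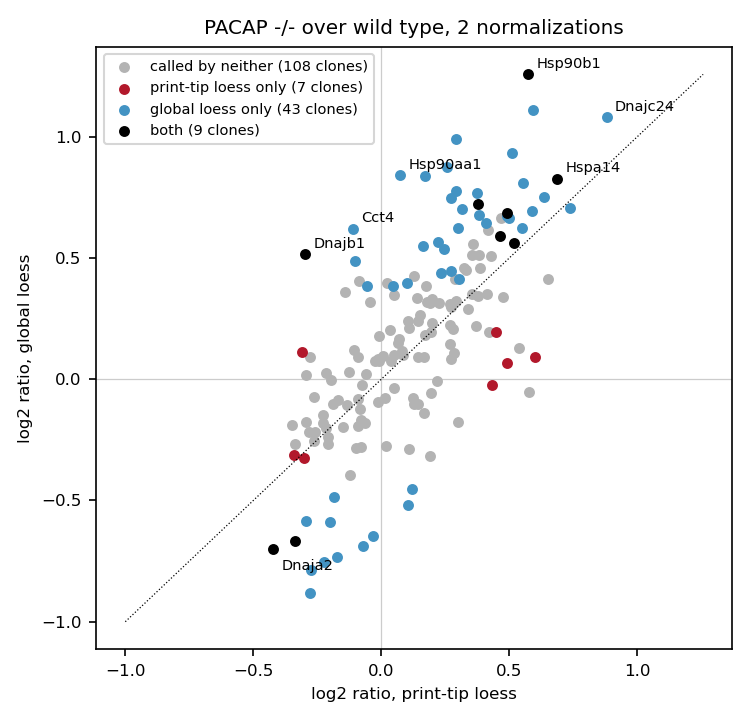
Mean log2 ratio (knockout over wild type) of the 167 member clones with print-tip loess (horizontal) and global loess (vertical), coloured by which of the 2 called them, with the line of equal values dotted. Of the 9 clones called by both, 8 have the same sign in both, and the Dnajb1 clone lies at -0.30 and 0.52, and the bright Hsp90aa1 clone moves from 0.07 to 0.84.

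Other genes of protein folding were taken by their brightest clone. Over all clones 6.67% were higher and 4.56% lower. Of 27 regulators and cochaperones of Hsp70 and Hsp90 tested, none was higher and 2 were lower. They were Ppid, the Hsp90-bound cyclophilin (-0.43 ± 0.10, adjusted p 0.032, from -0.71 to 0.005), and Bag2, which inhibits the ubiquitin ligase Stub1 (-0.41 ± 0.09, adjusted p 0.031, below 0 on all arrays). With global loess neither was called, at -0.007 and 0.16. Of 10 prefoldins and tubulin cofactors and of 20 further genes of endoplasmic reticulum folding and stress none passed. These counts leave out dimmer clones, of which some were called. A dimmer clone was higher for Cdc37, Bag6, Trap1, Pfdn6, Tbcc, Erp29, Ern1 and Manf, and lower for Chordc1. Xbp1, the transcription factor of the unfolded protein response, was at 0.22 ± 0.09 (adjusted p 0.12), Atf4 at 0.06 and Ddit3 at -0.04. With global loess Atf4 was called higher, at 0.64 (adjusted p 0.0063), and Xbp1 and Ddit3 were not called. The 3 lists had medians of 0.03, 0.11 and 0.07. The members, taken in the same way by the brightest clone of each gene, had a median of 0.05.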

How the data were processed

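Spotted cDNA arrays of 6 adrenal RNA pairs were scanned with a GenePix 4000A scanner and read out with IPLab and FileMaker Pro, per the labels; no software version was given in these sources. The authors deposited red and green intensity columns with the local background already subtracted, a calibrated red-to-green ratio (scaled by a constant of the array), and a quality fraction between 0 and 1 for each ratio. The deposited value table is in log2 of red against green, with a median of -0.10 to -2.59 per array, not centred. Its values matched those from floored intensities after a second background subtraction: 99.8% of its 35873 rows could be linked to a spot within 0.002, which gave the gene names (updated to RefSeq symbols of GRCm38.p6). The intensities of spots with quality above 0.3 were turned into log2 ratios of green over red and normalized by print-tip loess (span 0.3, 4 iterations) with limma 3.58.1 in R 4.3.3. Empty and control spots (768 and 384) were left out, spots of 1 clone were averaged, and clones on at least 4 arrays entered lmFit and eBayes (null of 0), with Benjamini-Hochberg adjusted p. The code was tested on simulated data. Precision is limited by the 6 arrays.

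Members, lists and print-tip loess as the main normalization were chosen with earlier results of these data known, among them that print blocks held much of the variance left by global loess (46.9% of the variance of the spots' mean ratios when computed here). Genes were named if a clone was called with 1 sign on all arrays, if they were among 27 central chaperones, if they had at least 3 tested clones, or if clones or normalizations called opposite directions. Other clones (Hspa1b, Dnajc24, Dnajc25, Dnajc2, Dnajb4, Dnajb5, Hspb6, Hspb8, and the other folding genes) were picked, and Hspa8, Hsp90aa1 and Hsph1 grouped, with their values in view. Alternatives were global loess, median centring of arrays or print blocks, background added back without and with normexp (offset 50), no quality filter, dim spots left out (at or below the 95th percentile of empty positions), clones on all 6 arrays, the value table, array weights, and leaving out arrays. For the value table the sign was turned to green over red, and each array was centred on its median.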

Additional observations from a re-analysis of the deposited data

Results flagged for a closer look

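On array 2 the called Cct2 clone AU041141 read 1.26, while the other 5 arrays lay between 0.17 and 0.55. The gap to the nearest array was 0.65 of the whole range, above Dixon's 95% limit for 6 values. This was 1 of 46 clones examined, and chance flags about 1 in 20. Without array 2 the mean of the clone was 0.34, and its scanner title names another gene.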

How the results depend on the processing

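Counts are given as all clones called, then member clones higher and lower, then other folding genes called, against 3217, 10, 6 and 2 in the reported fit. They were 8712, 39, 13 and 17 with global loess, 9419, 37, 16 and 18 with median centring of the arrays, and 5544, 24, 7 and 6 with median centring of print blocks. They were 3804, 13, 5 and 5 with the background added back, 3774, 17, 4 and 4 with normexp after it, 2870, 14, 4 and 4 without dim spots, and 3574, 15, 7 and 4 over clones on all 6 arrays. Array weights gave 4920, 20, 9 and 5. The value table gave 9863, 23, 15 and 7, with 73.6% of all calls higher against 59.4% in the reported fit, although the median of all its clones lay at 0.42. Its median over the members was -0.13, the only one below 0, and the other alternatives gave medians between 0.02 and 0.18. Without the quality filter limma called 0 of 35970 clones and so 0, 0 and 0 of the others, while 10088 clones and 60 member clones had an unadjusted p below 0.05. Without arrays 2 and 4 it called 88, 0, 0 and 0, with 31 member clones at an unadjusted p below 0.05. Without 1 array in turn, all calls ran from 1 to 3737, the members higher from 0 to 25 and lower from 0 to 4, the other folding genes from 0 to 3, and the members' median from 0.08 to 0.18.

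Directions of named clones turned as follows, and the cause was not tested. The lists leave out some clones that neither fit called, such as the brightest of Dnajb6 (-0.32) and Dnajc1 (0.09) with global loess. With global loess the called Cct4 clone was at 0.11, the brightest Cct4 clone at 0.62, Dnajb1 at 0.52, Dnajc7 at -0.023 and Hspbap1 at -0.52. With median centring of the arrays Dnajb6 was at -0.50, Hsp90b1 at -0.16, Dnajb1 at 0.080, Hspbap1 at -0.60, Calr at -0.00066, Hspa5 at -0.50 and Cct4 at 0.25. In the value table Dnajb6 was at -1.52, Dnajc2 at 2.12, Hspa14 at -0.54, Hsp90b1 at -1.19, Hspd1 at -0.47, Calr at -1.04, Hspa5 at -1.63 and Cct4 at 1.46. Under the other alternatives no called value changed sign among the 46 named clones. Each ratio is the difference within 1 pair of RNAs, so the test against 0 is itself the paired comparison and no replicate block was added. The weak red signal of arrays 2 and 4 limits what 6 arrays can show.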
